A study of Homo sapiens with 4 samples.

Results

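Genes of the T-cell receptor and of cytotoxic cells were followed in NB4 leukemia cells with and without added JMJD3. The set held 10 of the 60662 genes in the deposited table. These were the receptor constant genes TRAC, TRDC, TRGC1 and TRGC2, the surface antigens CD2 and CD7, and the cytotoxic genes CTSW, PRF1, NKG7 and CST7. They were chosen by name with their levels and changes in this same comparison already known. Their values are therefore a description, given without a p-value.

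NB4 is an established line of acute promyelocytic leukemia, which carries the PML-RARα fusion. Poly(A) RNA was sequenced from NB4 cells that had received a control vector (2 libraries) and from NB4 cells that had received a vector for overexpression of JMJD3 (2 libraries), a histone demethylase encoded by KDM6B. The methods of the study describe lentiviral vectors with a GFP marker and sorting of GFP-positive cells, so each library comes from a pool of transduced cells. Nothing states whether the 2 libraries of a group were separate transductions, and p-values then measure only the spread between these libraries.

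The libraries held 34190262 and 38947060 reads in the vector group and 35431638 and 41876210 in the JMJD3 group. These are the deposited estimated counts divided by what 1 read was worth in each library. Levels of a gene are compared between libraries in CPM (counts scaled to 1 common library size, with TMM factors), and levels of different genes in FPKM, which takes gene length into account. Finding 0 reads still allows up to 3 reads, between 0.0671 and 0.0925 CPM, and this limit covers counting error only. Lane 17 carried all libraries but vector library 1, which was on lane 20, so leaving out vector library 1 also leaves a comparison within lane 17.

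KDM6B was given first as a check of the labels. It stood at 15.8 and 13.7 CPM in the vector libraries and at 37.8 and 44.2 CPM in the JMJD3 libraries. Both JMJD3 libraries lay above both vector libraries, in the direction of their labels, with a log2 fold change of 1.48 ± 0.13 (SE, n = 2 per group; edgeR quasi-likelihood test, adjusted p = 0.00114). Whether these reads came from the vector or from the cell's own gene cannot be told apart.

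T cells recognise antigen through receptors made of paired alpha and beta or gamma and delta chains, which reach the cell surface only together with the CD3 chains. The variable part of each chain is assembled by V(D)J recombination, and the constant part is encoded by genes such as TRAC or TRDC, which can also be transcribed without rearrangement. Killer T cells and NK cells destroy targets by releasing granules that hold the pore-forming protein perforin (PRF1) and granzymes. Several granule genes, among them CST7 and PRF1, are also known from myeloid cells, whose azurophil granules are built by related routes.

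Of the 10 genes, 9 passed the filter on low counts and CD7 did not. CTSW, TRDC, TRAC and CD2 were between 2.59-fold and 8.13-fold higher in JMJD3 cells, PRF1 and CST7 differed by at most 1.32-fold, and NKG7, TRGC1 and TRGC2 were between 1.09-fold and 1.31-fold lower. The fit over 15246 genes called 5 of the 10 higher (CTSW, TRDC, TRAC, CD2 and PRF1) beside 21.6% of all genes tested, and 0 lower beside 19.1%. Nothing is read from these counts or from those that follow, since the same comparison chose the genes. At an unadjusted p under 0.05, 1 of the 10 was lower in edgeR. The share of all genes at that limit is not given, so this count has nothing to stand beside. At an adjusted p the DESeq2 Wald test called 1 lower (TRGC1), beside 2834 of the 15246 genes tested. For limma on FPKM the number was 0, beside 2260 of all genes with log2(FPKM + 1). With 1 library left out, NKG7 was called lower without vector library 1 and TRGC1 without vector library 2, where CST7 was called higher. Without either JMJD3 library PRF1 was no longer called. The median log2 fold change over all genes tested was 0.04. In bulk RNA, more cells with a transcript and more transcript per cell cannot be told apart.

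**Figure D1:**
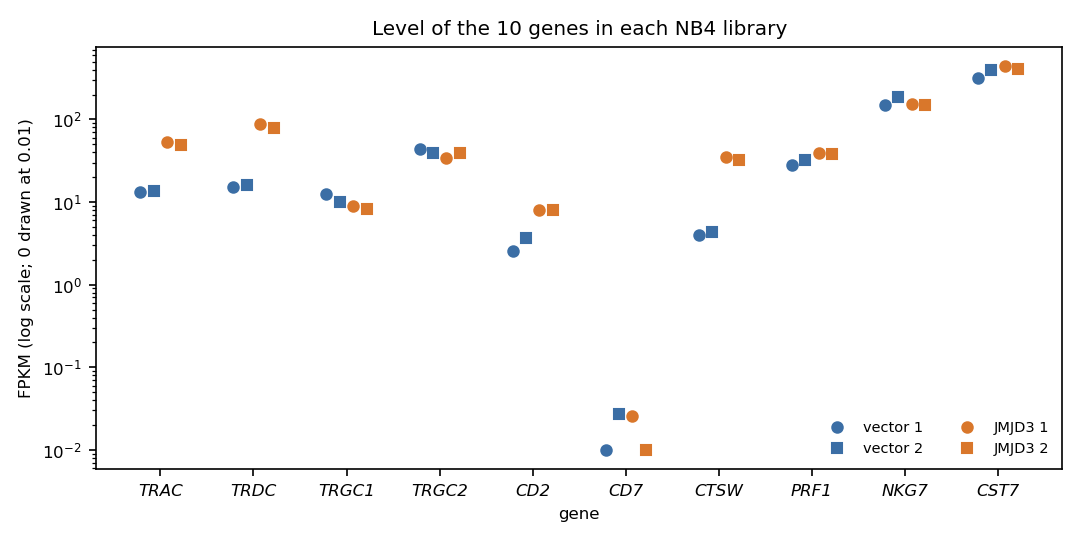
FPKM of the 10 genes on a log axis in each library, with circles for replicate 1 and squares for replicate 2 (blue, vector; orange, JMJD3; values of 0 drawn at 0.01). TRAC, TRDC, CD2 and CTSW show a gap between the groups, CST7 and NKG7 have the highest levels, and CD7 lies near 0.

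**Figure D2:**
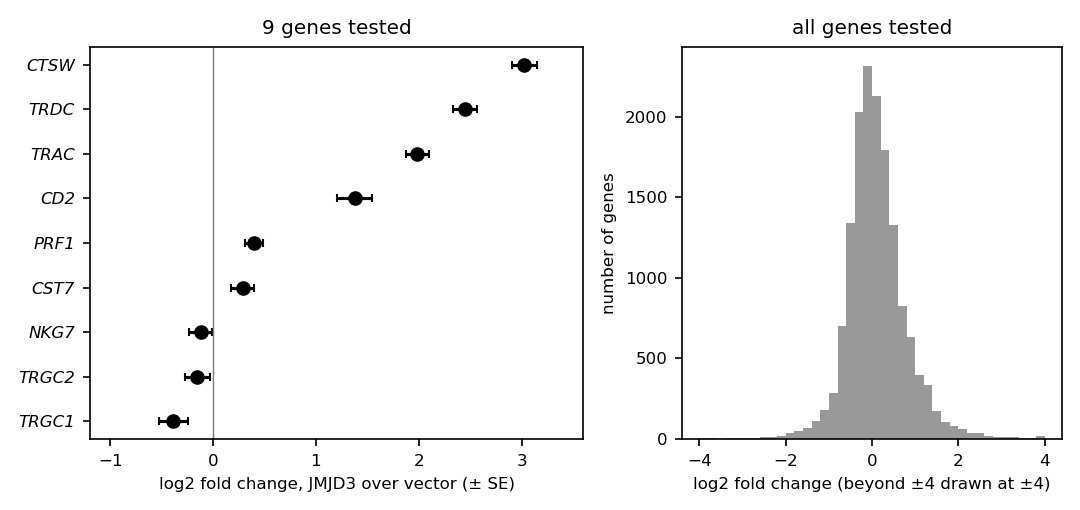
Left, fitted log2 fold changes of JMJD3 over vector with their standard errors (2 libraries per group) for the 9 genes that passed the filter, from 3.02 for CTSW to -0.39 for TRGC1. Right, the same quantity for all 15246 genes tested, with values beyond 4 in size drawn at 4.

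TRAC encodes the constant region of the receptor alpha chain (ENSG00000277734, chr14:22547506-22552132, GRCh38). It stood at 13.0 and 13.6 FPKM in the vector libraries and at 53.9 and 49.0 FPKM in the JMJD3 libraries. On the CPM scale the means were 9.44 ± 0.14 and 37.4 ± 2.7 (SD, n = 2 each), and the log2 fold change was 1.99 ± 0.11 (SE). Each JMJD3 library was between 3.72 and 4.21 times as high as each vector library.

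TRDC, the constant gene of the delta chain, lies close to TRAC on the same chromosome (ENSG00000211829, chr14:22462932-22466577), since the delta locus is nested within the alpha locus. Its levels were 15.3 and 16.2 FPKM in vector cells and 88.5 and 79.5 FPKM in JMJD3 cells. The log2 fold change was 2.45 ± 0.12 (SE), from means of 7.10 ± 0.19 and 38.8 ± 3.4 CPM (SD, n = 2 each). The ratio of TRDC to TRAC in FPKM was 1.18 and 1.19 in the vector libraries and 1.64 and 1.62 in the JMJD3 libraries, so the delta constant gene was the more abundant in each library and its lead was larger in JMJD3 cells.

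In the GENCODE annotation TRDC lies within TRD-AS1, a long non-coding RNA on the opposite strand, and the library kit does not mark strand. TRD-AS1 itself held 59 and 59 reads in the vector libraries and 151 and 214 in the JMJD3 libraries, and it rose with a log2 fold change of 1.36 ± 0.18 (SE; edgeR adjusted p = 0.00273), a call kept under all 13 alternatives. Reads from TRDC and from its antisense partner cannot be told apart where they overlap, and TRDC held 226, 264, 1538 and 1628 reads in the same order of libraries.

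The gamma chain has a pair of constant genes, TRGC1 (ENSG00000211689, chr7:38260088-38265678) and TRGC2 (ENSG00000227191, chr7:38240024-38249572). They are shown first as sequence, because their likeness bears on how reads could be divided between them. The lines give bases 1 to 120 of the GENCODE transcript of each gene, read 5′ to 3′, with the 4 positions at which they differ in capitals.
TRGC1: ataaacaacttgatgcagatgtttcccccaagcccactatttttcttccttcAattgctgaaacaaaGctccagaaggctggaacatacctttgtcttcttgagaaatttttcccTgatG
TRGC2: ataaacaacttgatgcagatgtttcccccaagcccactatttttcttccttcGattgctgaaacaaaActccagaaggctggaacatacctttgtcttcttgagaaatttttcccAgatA
Over 965 aligned bases, 98.9% were identical, and TRGC2 had 48 further bases with no partner in TRGC1. Of the 914 windows of 100 bases in the TRGC2 transcript, 219 (24.0%) also occurred without a mismatch in TRGC1. The individual values of the 2 genes are therefore uncertain, although their reads came out as whole numbers (within 0.01) in each library. The annotation also places TARP over TRGC1 on the same strand, and TARP had no row of its own in the table.

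TRGC1 stood at 12.5 and 10.1 FPKM in vector cells and at 8.83 and 8.19 FPKM in JMJD3 cells. Both JMJD3 libraries lay below both vector libraries, with a log2 fold change of -0.39 ± 0.14 (SE), or -0.24 without vector library 1 and -0.56 without vector library 2. TRGC2 stood at 43.6 and 39.4 FPKM in vector cells and at 33.7 and 39.3 FPKM in JMJD3 cells, and on the CPM scale its groups overlapped (log2 fold change -0.15 ± 0.12, from -0.26 without JMJD3 library 2 to -0.05 without JMJD3 library 1). Their counts summed before the fit gave -0.26 ± 0.115, a value that does not depend on how shared reads were divided between them. The summed level was 63.9 and 53.3 CPM in vector cells and 47.8 and 50.1 CPM in JMJD3 cells. The gamma constant genes thus showed no increase where the alpha and delta constant genes were several-fold higher. In vector cells they made up most of the summed CPM of the 4 constant genes, which was 80.2 and 70.0, while in JMJD3 cells that sum was 128 and 122.

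The beta constant genes were nearly silent. TRBC1 held 0, 0, 0 and 5 reads in vector 1, vector 2, JMJD3 1 and JMJD3 2, and TRBC2 held 0 in each library, so neither could be tested, alone or summed. PTCRA, the surrogate alpha chain of immature T cells, was also at 0 in each library.

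Reads were also followed in the variable, diversity and joining genes. These were picked out by name after their values had been seen, so no test is given for them. None of the 60 TRA, 14 TRB, 4 TRD or 5 TRG joining genes held a read in any library. This was so even for the gamma locus, whose variable and constant genes held reads. A 0 for a joining gene is therefore not read as a lack of transcription. Of 54 TRA variable genes, 2 held any read, and their sum was 0, 0, 0 and 2 reads. The 3 TRD variable genes summed to 1 and 0 reads in vector cells and 6 and 6 reads in JMJD3 cells, all of them in TRDV2. The 69 genes with a TRB variable name summed to 5, 10, 14 and 18 reads in the order vector 1, vector 2, JMJD3 1, JMJD3 2. TRBV7-3 held 3, 3, 13 and 14 of them. The sum also takes in TRBV20OR9-2 (0, 4, 1 and 3 reads), whose name marks a copy outside the beta locus. Reads for alpha and delta thus lay almost wholly in the constant genes.

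The gamma variable genes stood apart from this. Of 14 in the table, 10 exceeded 3 reads in some library, and together they held 279 and 290 reads in vector cells and 541 and 690 reads in JMJD3 cells. On the CPM scale the sums were 8.60 and 7.95 against 14.5 and 15.4. TRGV5 (121, 137, 228 and 312 reads in the order vector 1, vector 2, JMJD3 1, JMJD3 2) and TRGV10 (106, 114, 188 and 232 reads) made up most of this. TRGV7, with 4, 5, 27 and 31 reads, and TRGV8, with 2, 2, 10 and 17 reads, were low in vector cells. The summed gamma variable genes were thus higher in both JMJD3 libraries, without an increase of the gamma constant genes. Whether the variable and constant parts were read from the same transcripts was not tested.

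The CD3 chains, which every surface T-cell receptor needs, were close to 0 in both groups. CD3D held 8, 10, 9 and 10 reads, CD3G 0, 4, 1 and 0, CD3E 1, 2, 0 and 2, and CD247 0, 1, 0 and 2, in the order vector 1, vector 2, JMJD3 1, JMJD3 2. Of the 7 genes listed as CD3 chains and co-receptors, only CD4 passed the filter, a gene that monocytic and myeloid cells also express. It stood at 78.0 and 81.9 FPKM in vector cells and at 75.0 and 76.2 FPKM in JMJD3 cells, and its log2 fold change was 0.02 ± 0.08 (SE; edgeR adjusted p = 0.890). CD8A held 1 read in 1 library, and CD8B held none. The recombination genes RAG1, RAG2 and DNTT did not pass the filter, and the highest value among them was 6 reads of RAG1 in JMJD3 2.

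Markers of whole T cells and NK cells were examined beside these values. Of 12 T-cell markers none passed the filter, 8 held at most 3 reads in each library, and CD5, CD8B and TRBC2 were at 0 throughout. The summed level of the 12 was 0.401 and 0.576 CPM in vector cells and 0.536 and 0.761 CPM in JMJD3 cells, so the groups overlapped. In FPKM the sum was 0.558 and 0.673 against 0.696 and 1.91, without overlap, and the most abundant was CD3D. It stood at 0.413, 0.470, 0.529 and 1.35 FPKM in the order vector 1, vector 2, JMJD3 1, JMJD3 2. Its reads were 8, 10, 9 and 10 in the same order, so no change of the markers is read from the FPKM gap. TRAC alone, at 9.34 CPM in vector 1, was thus far above the sum of the 12 T-cell markers in any library. Of 8 NK-cell markers, 5 held at most 3 reads in each library (GZMB, KLRD1, KLRC1, KLRF1 and NCR1), and the sum was 11.6 and 10.3 CPM in vector cells and 8.52 and 9.73 CPM in JMJD3 cells. In FPKM the NK-cell sum was 5.20 and 4.92 in vector cells and 6.60 and 7.24 in JMJD3 cells, so its direction depended on the scale. NCR3 and NCAM1 made up most of it, at means of 2.38 and 2.47 FPKM in vector cells, within the spread of the libraries, and of 5.33 and 1.33 FPKM in JMJD3 cells.

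CD2 is an adhesion receptor of T and NK cells (ENSG00000116824, chr1:116754430-116769229). It stood at 2.58 and 3.68 FPKM in the vector libraries and at 7.92 and 7.98 FPKM in the JMJD3 libraries. The log2 fold change was 1.38 ± 0.17 (SE), with group means of 4.17 ± 0.97 and 10.8 ± 0.020 CPM (SD, n = 2 each). The vector libraries differed more from each other than the JMJD3 libraries did, and the log2 fold change was 1.11 within lane 17 and 1.63 without vector library 2. CD7, another antigen of early T and NK cells (ENSG00000173762, chr17:82314873-82317608), held 0 and 1 reads in vector cells and 1 and 0 reads in JMJD3 cells. Both groups lay under the 3-read limit, so no fold change is given.

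Among 9 ligands and cytoplasmic partners of CD2 and CD7, 8 were tested, 3 rose and 1 fell, with a median log2 fold change of 0.24. CD48, a ligand of CD2-family receptors, held 319 and 432 reads in vector cells and 1173 and 1443 in JMJD3 cells (log2 fold change 1.55 ± 0.12, SE; edgeR adjusted p = 0.000973). LGALS3 (1.34 ± 0.30, adjusted p = 0.0137) and LGALS1 (0.68 ± 0.10, adjusted p = 0.00429), which encode galectins, were the others that rose, and galectin-1 is known to bind CD7. PSTPIP1, which binds the cytoplasmic tail of CD2, fell by 0.70 ± 0.10 on the log2 scale (adjusted p = 0.00390). CD58, the main human ligand of CD2, did not pass the test (0.31 ± 0.11, adjusted p = 0.0673; called higher without vector library 1), and SECTM1, a ligand of CD7 and its neighbour on the chromosome, held 0 reads in each library. Without vector library 1, 5 genes of this list were called higher and 3 lower, and without vector library 2, 2 were called lower.

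CTSW, a cysteine protease of killer cells named cathepsin W or lymphopain, had the largest fold change of the 10 genes (ENSG00000172543, chr11:65879837-65883741). Its level was 4.05 and 4.40 FPKM in vector cells and 35.2 and 32.5 FPKM in JMJD3 cells. The log2 fold change was 3.02 ± 0.12 (SE), from means of 4.26 ± 0.30 and 34.7 ± 2.2 CPM (SD, n = 2 each). Each JMJD3 library was between 7.41 and 8.99 times as high as each vector library. CTSW overlaps FIBP on the opposite strand by 2 bases, and FIBP did not change (0.12 ± 0.10 on the log2 scale, edgeR adjusted p = 0.382).

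CST7 encodes cystatin F, an inhibitor of cathepsins that is kept in the granules of killer and myeloid cells (ENSG00000077984, chr20:24949269-24959928). It was the most abundant of the 10 genes, at 318 and 399 FPKM in vector cells and 441 and 413 FPKM in JMJD3 cells. Both JMJD3 libraries lay above both vector libraries, but the log2 fold change was 0.29 ± 0.11 (SE), or 0.10 within lane 17 and 0.44 without vector library 2, where it was called higher. The difference between the groups was thus of the same order as that between the 2 vector libraries.

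Of 16 other cathepsins and inhibitors, 14 were tested, and 1 rose and 5 fell, with a median log2 fold change of -0.28. CTSG, which encodes cathepsin G of azurophil granules, held 4688 and 5971 reads in vector cells and 409 and 429 in JMJD3 cells, and it fell by 3.91 ± 0.12 on the log2 scale (edgeR adjusted p = 9.3e-05). CTSC, the protease that activates granzymes and the azurophil serine proteases and is a target of cystatin F, fell by 0.38 ± 0.07 (adjusted p = 0.00728). CTSL fell as well (-0.70 ± 0.12, adjusted p = 0.00659), while CTSS rose (0.49 ± 0.10, adjusted p = 0.00903). CST3, the gene for cystatin C, was called lower (-0.41 ± 0.13, adjusted p = 0.0435) but lost its call in 6 of 13 alternatives, and ranged from -0.62 without vector library 1 to -0.23 without vector library 2. CTSW and CTSG thus moved by over 8-fold in opposite directions. Without JMJD3 library 1, 0 of this list were called higher and 2 lower, and without JMJD3 library 2, 0 and 1, the last being CTSG. Without vector library 2, 2 were called higher.

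PRF1, the pore-forming protein perforin (ENSG00000180644, chr10:70597348-70602741), stood at 28.2 and 32.0 FPKM in vector cells and at 39.3 and 38.6 FPKM in JMJD3 cells. The groups did not overlap, and the log2 fold change was 0.40 ± 0.09 (SE), or 0.28 within lane 17. PRF1 lies within PALD1, a gene on the opposite strand, whose log2 fold change was -0.11 with an edgeR adjusted p of 0.295. PALD1 held 3406 and 3988 reads in vector cells and 3736 and 4390 in JMJD3 cells. Since strand was not marked, reads of PRF1 and PALD1 cannot be told apart where they overlap. NKG7, a membrane protein of cytotoxic granules (ENSG00000105374, chr19:51371620-51372654), stood at 151 and 186 FPKM in vector cells and at 152 and 150 FPKM in JMJD3 cells. Its groups overlapped. The log2 fold change of NKG7 was -0.12 ± 0.11 (SE), and its sign depended on the vector libraries, with -0.30 without vector library 1 and 0.02 without vector library 2.

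In FPKM the order of the 10 genes in vector cells was CST7, NKG7, TRGC2, PRF1, TRDC, TRAC, TRGC1, CTSW, CD2 and CD7. In JMJD3 cells it was CST7, NKG7, TRDC, TRAC, PRF1, TRGC2, CTSW, TRGC1, CD2 and CD7. TRDC and TRAC moved up past TRGC2 and PRF1, and CTSW past TRGC1. PRF1 and TRGC2 in JMJD3 cells, at 39.0 ± 0.5 and 36.5 ± 3.9 FPKM (SD, n = 2 each), did not differ beyond their spread, and neither did TRGC2 and CTSW, the latter at 33.9 ± 1.9 FPKM. CST7 and NKG7 exceeded 98.1% and 94.8% of the genes tested in mean FPKM over the 4 libraries, against 52.7% for TRGC1 and 42.2% for CD2.

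Promoter sequence was at hand for 3 of the 10 genes, from RefSeq on GRCh38.p14, in windows of 300 bases around the start of the gene. PRF1 and NKG7, with small changes, are shown beside CD2, whose level was higher in JMJD3 cells. Capitals mark AGGAAG, the core of ETS sites, and TGTGGT, the core of RUNX sites, on either strand. CD2 lies at chr1:116754180-116754479 on the plus strand, PRF1 at chr10:70602692-70602991 and NKG7 at chr19:51372605-51372904, both on the minus strand.
CD2: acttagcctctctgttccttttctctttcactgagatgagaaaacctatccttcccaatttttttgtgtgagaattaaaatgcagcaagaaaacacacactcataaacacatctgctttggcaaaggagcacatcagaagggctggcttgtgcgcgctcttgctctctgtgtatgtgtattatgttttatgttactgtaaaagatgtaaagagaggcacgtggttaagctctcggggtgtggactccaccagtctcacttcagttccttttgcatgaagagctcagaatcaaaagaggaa
PRF1: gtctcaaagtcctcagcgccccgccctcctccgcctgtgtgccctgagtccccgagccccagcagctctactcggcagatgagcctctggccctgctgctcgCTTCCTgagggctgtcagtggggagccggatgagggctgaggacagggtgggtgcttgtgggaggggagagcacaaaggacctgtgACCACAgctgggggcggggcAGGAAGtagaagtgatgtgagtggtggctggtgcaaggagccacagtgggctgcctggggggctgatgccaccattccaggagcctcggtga
NKG7: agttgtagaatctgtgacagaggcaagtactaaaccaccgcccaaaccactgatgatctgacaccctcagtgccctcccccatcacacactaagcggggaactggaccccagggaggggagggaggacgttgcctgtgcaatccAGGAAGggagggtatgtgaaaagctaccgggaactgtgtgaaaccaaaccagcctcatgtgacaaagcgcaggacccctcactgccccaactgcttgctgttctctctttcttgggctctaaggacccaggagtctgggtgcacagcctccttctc
AGGAAG occurred in PRF1 and NKG7, as in 33.6% of the 35116 promoters of this length, and TGTGGT in PRF1, as in 13.1%. TTGCNNAA, a C/EBP motif, occurred in CD2, as in 10.5% of all promoters, and the E-box CANNTG in all 3, as in 68.7%. The T-box motif AGGTGT and the GATA motif AGATAA occurred in none of the 3, against 11.4% and 10.3% of all promoters. These matches describe letters within these windows only. TRAC, TRDC, TRGC1, TRGC2, CD7, CTSW and CST7 had no entry.

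Beyond the 10 genes, 11 lists of related genes were followed, with 152 genes in all, of which 79 were tested. In the fit 32 of the 79 were called higher and 16 lower, the latter close to the 19.1% of all genes tested. Of the 32, 6 held fewer than 10 reads in each vector library and were tested because of their reads in the JMJD3 libraries (CD69, IL2RB, CCR7, IKZF2, ZNF683 and BCL11B), so the 32 are not read against the 21.6% of all genes. Nothing is read from the counts of any single list, beside which 21.6% of all genes tested were called higher and 19.1% lower. With at least 10 counts in every library 27 were called higher and 16 lower, and with no filter 18 and 11. Without JMJD3 library 1 the counts were 20 higher and 8 lower, and without JMJD3 library 2 they were 18 and 7. With each gene tested only if it was expressed in NB4 cells, the lists stand for their expressed members and not for the pathway.

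Of 11 other cytotoxic effector genes, only TNFSF10 and SRGN passed the filter. TNFSF10, which encodes the death ligand TRAIL, held 215 and 259 reads in vector cells and 734 and 803 in JMJD3 cells (log2 fold change 1.45 ± 0.12, SE; edgeR adjusted p = 0.000997), and kept its call under all 13 alternatives. SRGN, the proteoglycan core of granules in killer and myeloid cells alike, had a mean of 1476 FPKM in vector cells and 1481 FPKM in JMJD3 cells, with a log2 fold change of 0.03 ± 0.08 (adjusted p = 0.765). Granzymes were close to 0, with 0, 1, 0 and 0 reads for GZMA and 1, 0, 0 and 0 for GZMB in the order vector 1, vector 2, JMJD3 1, JMJD3 2, and none for GZMH and GZMK. GZMM held 2, 4, 9 and 8 reads and GNLY 1, 4, 5 and 10 reads. The PRF1 value was thus 28.2 FPKM or more in each library, with nearly no granzyme A or B beside it. What part of that value came from PALD1 on the opposite strand was not tested.

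The machinery that releases such granules was expressed throughout, with 14 of 14 genes tested, and 5 rose and 4 fell (median log2 fold change 0.09). SYTL1, an effector of RAB27A on granules, rose by 0.54 ± 0.10 on the log2 scale (edgeR adjusted p = 0.00707) under all 13 alternatives. SYTL2 (0.91 ± 0.30, adjusted p = 0.0488), STX11 (0.80 ± 0.24, adjusted p = 0.0369) and SYTL3 (0.58 ± 0.13, adjusted p = 0.0146) rose too, but each lost its call in at least 4 of the alternatives. STXBP2, the partner of STX11, fell by 0.41 ± 0.11 (adjusted p = 0.0223), and LAMP1, VAMP8 and RAB7A fell by between 0.25 and 0.35. VAMP8 and RAB7A each kept their call in only 6 of 13 alternatives, against 11 for LAMP1 and 10 for STXBP2. Without JMJD3 library 1 the counts were 2 higher and 0 lower, and without JMJD3 library 2 they were 1 and 0. Without vector library 2, 3 were higher.

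Among 29 genes of T-cell receptor signalling, 14 were tested, 6 rose and 3 fell, with a median log2 fold change of 0.37. PTPRC, the phosphatase CD45, rose by 0.90 ± 0.20 on the log2 scale (edgeR adjusted p = 0.0139). The transcription factors NFATC2 (0.90 ± 0.16, adjusted p = 0.00675) and NFATC3 (0.85 ± 0.22, adjusted p = 0.0238) rose too. With 1 library left out, PTPRC ranged from 0.60 to 1.23 and NFATC3 from 0.52 to 1.22. Both lost their call with no filter. LAT, the membrane scaffold of the receptor, held 142 and 208 reads in vector cells and 342 and 359 in JMJD3 cells (0.77 ± 0.17, adjusted p = 0.0133). FYN (-0.98 ± 0.23, adjusted p = 0.0170), PLCG1 (-0.78 ± 0.10, adjusted p = 0.00262) and VAV1 (-0.43 ± 0.10, adjusted p = 0.0144) fell. The kinase LCK was low and did not pass the test, with 11, 16, 26 and 26 reads (0.70 ± 0.33, adjusted p = 0.133), and ZAP70 held 4, 3, 10 and 11 reads and was not tested. CD28, ICOS, CTLA4, THEMIS and TRAT1 held 0 reads in each library. Without JMJD3 library 1, PLCG1 was the only 1 of the 3 lower genes still called, and without a filter on low counts 1 gene of the list was called higher.

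Of 12 T-lineage surface antigens, 4 were tested and all 4 were called higher, 3 of them from a few reads. CD69, an early activation antigen, held 5 and 8 reads in vector cells and 40 and 43 in JMJD3 cells (log2 fold change 2.44 ± 0.34, SE; edgeR adjusted p = 0.00335). IL2RB held 5 and 8 against 24 and 35 reads (1.92 ± 0.38, adjusted p = 0.00917). CCR7 held 1 and 3 against 11 and 13 reads, a ratio of 5.04 with a 95% counting interval from 1.73 to 19.99, and lost its call in most alternatives (edgeR adjusted p = 0.0234). IL2RG, the common cytokine receptor chain, was abundant, at means of 99.4 and 129 FPKM, and rose by 0.43 ± 0.08 (adjusted p = 0.00715). CD69, IL2RB and CCR7 held fewer than 10 reads in each vector library, and their reads in the JMJD3 libraries brought them into the test, so the count of 4 is not a share of the 12. With at least 10 counts in every library only 1 antigen was called. With no filter CD69 and IL2RB kept their call and CCR7 lost it. Without JMJD3 library 1, 2 of the 4 were called, and without JMJD3 library 2 only CD69 was.

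Of 26 NK-cell receptors and adaptors, 7 were tested, with 4 higher and 1 lower (median log2 fold change 1.01). NCR3, an activating receptor also called NKp30, held 48 and 56 reads in vector cells and 149 and 176 in JMJD3 cells (log2 fold change 1.39 ± 0.17, SE; edgeR adjusted p = 0.00228). The chemokine CCL5 stood at a mean of 75.0 FPKM in vector cells and 177 FPKM in JMJD3 cells (1.27 ± 0.09, adjusted p = 0.000691). HCST, the signalling adaptor DAP10 (1.14 ± 0.18, adjusted p = 0.00493), and CD244, a receptor for CD48 (1.01 ± 0.14, adjusted p = 0.00307), rose as well. These 4 kept their call under all 13 alternatives. NCAM1, which encodes CD56, held 326 and 314 reads in vector cells and 163 and 246 in JMJD3 cells and fell by 0.92 ± 0.16 (adjusted p = 0.00674), a call lost with limma on FPKM. KLRD1 held 0, 1, 1 and 2 reads, KLRF1 and the killer-cell immunoglobulin-like receptors KIR2DL1, KIR2DL3, KIR3DL1 and KIR3DL2 held none, and TYROBP did not change (0.01 ± 0.15, adjusted p = 0.975).

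Transcription factors of the T and NK lineages were read in 21 genes, of which 15 were tested, with 8 called higher and 2 lower. With at least 10 counts in every library 5 were called higher, and with no filter 4. IKZF2 held 1 and 1 reads in vector cells and 15 and 15 in JMJD3 cells, a ratio of 12.6 with a 95% counting interval from 3.20 to 109 (edgeR adjusted p = 0.00675). ZNF683 (2.44 ± 0.52, adjusted p = 0.0124) and BCL11B (1.51 ± 0.36, adjusted p = 0.0168) were also called higher, from at most 9 reads in a vector library. These 3 genes passed the filter through the JMJD3 libraries. With 1 library left out ZNF683 ranged from 1.72 without vector library 1 to 3.82 without vector library 2 and lost its call with no filter, and BCL11B lost its call in 5 of 12 alternatives, among them those without JMJD3 library 1 or 2. ETS1 was well expressed, with 1650 and 1506 reads in vector cells and 3512 and 4643 in JMJD3 cells (1.10 ± 0.12, adjusted p = 0.00201). ID2 held 759 and 869 against 213 and 275 reads and fell by 1.99 ± 0.11 (adjusted p = 0.000375), and PRDM1 fell by 1.35 ± 0.26 (adjusted p = 0.00838). ETS1, ID2 and PRDM1 kept their call under all 13 alternatives. TBX21, EOMES, GATA3, TCF7, LEF1 and TOX held at most 1 read in any library. Without JMJD3 library 1 or 2, 4 genes of the list were called higher.

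Chromosomal neighbours of the 10 genes mostly held few or no reads or had no called change. The joining genes TRAJ1, TRDJ3, TRGJ1, TRGJ2 and TRGJP2 held 0 reads, as did every joining gene of the receptor loci. STARD3NL beside TRGC2 had a log2 fold change of 0.09 (edgeR adjusted p = 0.408). EFEMP2, which lies on one side of CTSW, held 172 and 246 reads in vector cells and 865 and 1027 in JMJD3 cells, and rose by 1.93 ± 0.14 on the log2 scale (adjusted p = 0.000734). CCDC85B on the other side of CTSW did not (-0.22, adjusted p = 0.296). APMAP beside CST7 had a log2 fold change of 0.23 (adjusted p = 0.0626) and ADAMTS14 beside PRF1 0.24 (adjusted p = 0.542). With 1 library left out, APMAP ranged from 0.13 to 0.29, ADAMTS14 from 0.02 to 0.42 and CCDC85B from -0.48 to 0.03. CLDND2 beside NKG7 had -0.39 (adjusted p = 0.613), with a range from -1.44 without JMJD3 library 2 to 0.22 without JMJD3 library 1. A long non-coding RNA beside CD7 (ENSG00000260563) was called higher (0.78 ± 0.19, adjusted p = 0.0198), a call lost with the DESeq2 Wald test and without JMJD3 library 2.

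For each of the 9 tested genes, the other tested gene nearest in pattern was sought among 15245, by the root mean square distance of log2 CPM (with a prior count of 2, which shrinks differences of genes with few reads) centred over the 4 libraries. ENO2 lay nearest to CTSW (distance 0.0389), with 66 and 79 reads in vector cells and 671 and 779 in JMJD3 cells. IKZF2 lay nearest to TRDC (0.0542), MROH7-TTC4 to TRAC (0.0296) and DRAXIN to CD2 (0.0264), all 3 with fewer than 60 reads in each library. The fitted change was 3.62 ± 0.64 for IKZF2 against 2.45 ± 0.12 for TRDC, and 2.45 ± 0.42 for MROH7-TTC4 against 1.99 ± 0.11 for TRAC (SE). DRAXIN, at 1.42 ± 0.29, did not differ from CD2, at 1.38 ± 0.17, beyond the standard errors. ZNF134 lay nearest to TRGC1, NEDD4L to TRGC2, RLTPR to PRF1, RPP38 to NKG7 and TMEM141 to CST7, at distances of at most 0.0202. In FPKM, where limma gave NEDD4L and ZNF134 the opposite sign, these patterns can differ. With 4 libraries, many genes can share such a pattern by their group means alone.

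Markers of other lineages were read in the same libraries. Of 8 promyelocyte markers, 7 were tested, and 2 rose and 4 fell, beside 21.6% and 19.1% of all genes tested. Their summed level was 16764 and 17575 CPM in vector cells and 10718 and 10670 CPM in JMJD3 cells. MPO, the most abundant of them, fell by 0.57 ± 0.06 on the log2 scale (edgeR adjusted p = 0.00168), and so did PRTN3 (-1.81 ± 0.11, adjusted p = 0.000394) and AZU1 (-0.56 ± 0.12, adjusted p = 0.0119). CEBPE rose by 0.72 ± 0.12 (adjusted p = 0.00515) and CD33 by 0.29 ± 0.09 (adjusted p = 0.0380), the latter a call lost in 8 of 13 alternatives, among them those without JMJD3 library 1 or 2. ELANE held 11, 7, 1 and 2 reads and was not tested. Of 8 B-cell markers, 4 held at most 3 reads and MS4A1 and VPREB1 were at 0, while CD79A rose by 0.83 ± 0.13 (adjusted p = 0.00416) and the most abundant, CD79B, did not (0.05, adjusted p = 0.805). The sum over the B-cell markers was 26.2 and 30.9 CPM in vector cells and 36.7 and 32.9 CPM in JMJD3 cells. All 6 erythroid markers were at 0 in each library. The part of these shifts in the values of the 10 genes was not tested.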

How the data were processed

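Estimated counts and FPKM values per gene were read from the table the authors deposited; its own comparison columns (fold change, p-value, FDR) were not used. The processing notes name CASAVA 1.8, TopHat2 2.0.4, RSEM, edgeR and GRCh38, whereas the paper describes STAR, hg19, HTSeq-count and DESeq2; which made the table is not stated. Gene positions are those of RefSeq on GRCh38.p14. Neighbours and overlaps come from GENCODE release 44 lifted to GRCh37.

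The deposited estimated counts had already been scaled: between 92.6% and 93.0% of the values in a library were whole multiples (within 0.01 read, or 6e-06 of larger values) of 1 step, worth 1.14, 1.05, 0.993 or 0.829 counts, and this step was taken as 1 read. After rounding, filterByExpr kept 15246 genes, TMM set the library sizes, and edgeR 4.0.16 (glmQLFit, glmQLFTest; R 4.3.3) compared the groups over all 4 libraries with no covariate. Genes with a Benjamini-Hochberg adjusted p below 0.05 are the called ones. The standard error is the size of the log2 fold change divided by the square root of F. The scripts were tested on simulated data. An exact permutation test of 2 against 2 libraries cannot go below p = 0.333 and was not used.

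The fit was repeated with upper quartile scaling, with DESeq2 1.42.0 (its size factors in edgeR, and its Wald test), with limma 3.58.1 on FPKM after adding 1 or 0.1 and taking log2, without a filter, with a minimum of 10 counts in every library, with a replicate block, with each library left out, with TRGC1 and TRGC2 summed, and for changes of at least 2-fold. Unscaled reads and a crossed pairing were added after seeing the data. Members and lists were chosen with earlier results of these data known. Named genes were the 10 genes, KDM6B, 14 T- and NK-cell genes, 3 promyelocyte markers, up to 4 highest and 4 lowest called genes per list, neighbours, overlapping genes, and the gene nearest in pattern to each tested member; CD4, CD58, CD79B, SRGN and TYROBP were added after seeing the data. Others are named within a list's count, and receptor variable genes were chosen after their values were seen.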

Additional observations from a re-analysis of the deposited data

How the results depend on the processing

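KDM6B kept its direction and its call under each alternative run, with a log2 fold change between 1.36 and 1.58 when 1 library was left out. Genes called higher and lower numbered 3292 and 2906. They were 2046 and 2260 with limma on log2(FPKM + 1), 2032 and 2291 with log2(FPKM + 0.1), 3096 and 3130 with DESeq2 size factors, 2534 and 2834 with the DESeq2 Wald test, 1893 and 1776 with no filter, and 1151 and 430 at 2-fold or more, so which direction had more calls depended on the method. With 1 library left out they ranged from 1890 to 4248 higher and from 1110 to 4212 lower, where the lone library of a group is assumed to vary like the others. Of the listed genes, 32 higher became 21 with log2(FPKM + 1) and 18 with no filter. With 1 library left out they ranged from 18 to 37 higher and 7 to 22 lower. More genes tested enter the adjustment with no filter; the other causes were not tested.

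Of the 10 genes, 1 was called lower with DESeq2 size factors and 1 with the DESeq2 Wald test (TRGC1 in both), and 0 to 1 with 1 library left out. On log2(FPKM + 1), which understates changes of low genes, the log2 fold change was 2.74 for CTSW, 2.34 for TRDC, 1.87 for TRAC and 1.13 for CD2. With 1 library left out, the ranges were 2.91 to 3.09 for CTSW, 1.11 to 1.63 for CD2, 0.28 to 0.47 for PRF1, 0.10 to 0.44 for CST7, -0.56 to -0.24 for TRGC1, -0.26 to -0.05 for TRGC2 and -0.30 to 0.02 for NKG7, whose sign turned without vector library 2 (0.024). TRBC1 and TRBC2 summed were too low for a value. The unscaled reads called 3304 higher and 2915 lower and changed no call of the 70 other genes run through the alternatives. Of the 53 of these that were called, 23 were called the same way under each alternative, and none turned its sign. The sign of 10 genes without a call (CCDC85B, CD4, CD79B, CLDND2, FIBP, NEDD4L, RPP38, SRGN, TYROBP and ZNF134) differed under some alternative.

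The libraries are paired by replicate number alone; over 15246 genes the correlation between groups of the replicate 1 deviations was -0.15. With the replicate block, 3267 genes were called higher and 2415 lower. With the crossed pairing, chosen after seeing the data, 4335 were called higher and 3772 lower, among them 6 and 1 of the 10 genes (CST7 and TRGC1 added).

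Genes with under 10 reads in the vector libraries, among them CD69, IL2RB and CCR7, rest on few reads, and for CD7, TRBC2 and most T-cell markers a difference was not detectable at this depth.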
